A study of Mus musculus with 8 samples.

Results

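The genes described here are 10 genes that astrocytes use to take up potassium and glutamate, to build their filaments and to join to one another: Kcnj10, Aqp4, Slc1a2, Slc1a3, Glul, Gfap, Vim, Gja1, Gjb6 and Aldh1l1. They were chosen by symbol out of 19938 genes measured by a probe set paired with that symbol alone, and where a gene had several such probe sets the brightest stood for it. Kcnj10 was put on the list because of its difference in these same arrays, so its values are a description and no test is given for it. The other 9 genes were taken as a group of known astrocyte genes.

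Whole-brain RNA was compared between male mice labelled TNF-/- (4 arrays, each a biological replicate) and male mice labelled TNF+/+ on the C57BL/6 strain (4 arrays), all adults of 2 to 4 months. TNF is the cytokine tumour necrosis factor. Each sample was read on a separate Mouse Gene 1.0 ST array (Affymetrix), and every value below is the authors' log2 signal, on which a difference of 1 is a doubling. The labels give neither the targeted allele nor the strain background of the TNF-/- mice, and do not say whether mice were littermates.

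Astrocytes keep the space around neurons low in potassium and glutamate. Potassium enters them through the inward rectifier channel Kir4.1, encoded by Kcnj10, and glutamate through the transporters GLT-1 (Slc1a2) and GLAST (Slc1a3), after which glutamine synthetase (Glul) converts it to glutamine. Gap junctions of the connexins Cx43 (Gja1) and Cx30 (Gjb6) link neighbouring astrocytes, and aquaporin-4 (Aqp4) sits with Kir4.1 on the endfeet that cover blood vessels. Gfap and Vim encode intermediate filament proteins whose amounts increase in reactive astrocytes, and Aldh1l1 encodes a folate enzyme used as a general astrocyte marker. In brain, Kcnj10 is also used by oligodendrocytes, and Vim by endothelial and ependymal cells.

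Some facts of the arrays bear on every value. The arrays labelled TNF-/- gave the higher Tnf signal, at 5.67 to 6.21 against 4.24 to 4.93 in those labelled TNF+/+ (limma, adjusted p = 0.0278), which goes against the labels. The sources used here do not give the deleted part, and a probe set outside it checks nothing, so every direction below is that of arrays as labelled. TNF+/+ arrays 3 and 4 stood apart on the first principal component (24% of the variance), where they scored 22.05 and 37.22 and no other array exceeded -4.29. TNF+/+ array 1 had a signal of 8.21 for Gabra6, a gene of cerebellar granule cells, against 4.01 to 4.42 on the other 7 arrays. Because these are lysates of mixed cells, fewer astrocytes and less RNA per astrocyte cannot be told apart. All 10 genes gave signals of 7.14 or more on every array, above the array medians of 5.03 to 5.11, so the defining astrocyte markers were present throughout.

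Of the 10 genes, 5 were on average higher in the arrays labelled TNF-/- (Kcnj10, Gjb6, Slc1a3, Gja1 and Slc1a2) and 5 lower (Gfap, Aldh1l1, Aqp4, Vim and Glul). Among the 9 genes other than Kcnj10, limma called 0 at an adjusted p under 0.05, where 0.0816% of the 35556 probe sets were called. SAM, the test named in the study's design, also called 0 of the 9, against 0.149% of all probe sets. At an unadjusted p under 0.05, 2 of the 9 differed, against 10.8% of all probe sets. Gjb6 was higher, as were 5.92% of all probe sets at that p, and Gfap lower, as were 4.90%. Of the 10 genes only Kcnj10, chosen for its difference, had groups that did not overlap, and 0 of the other 9 did, where the groups did not overlap for 6.63% of all probe sets. The median difference of the 9 was -0.01, as it was over all genes (-0.01).

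**Figure D1:**
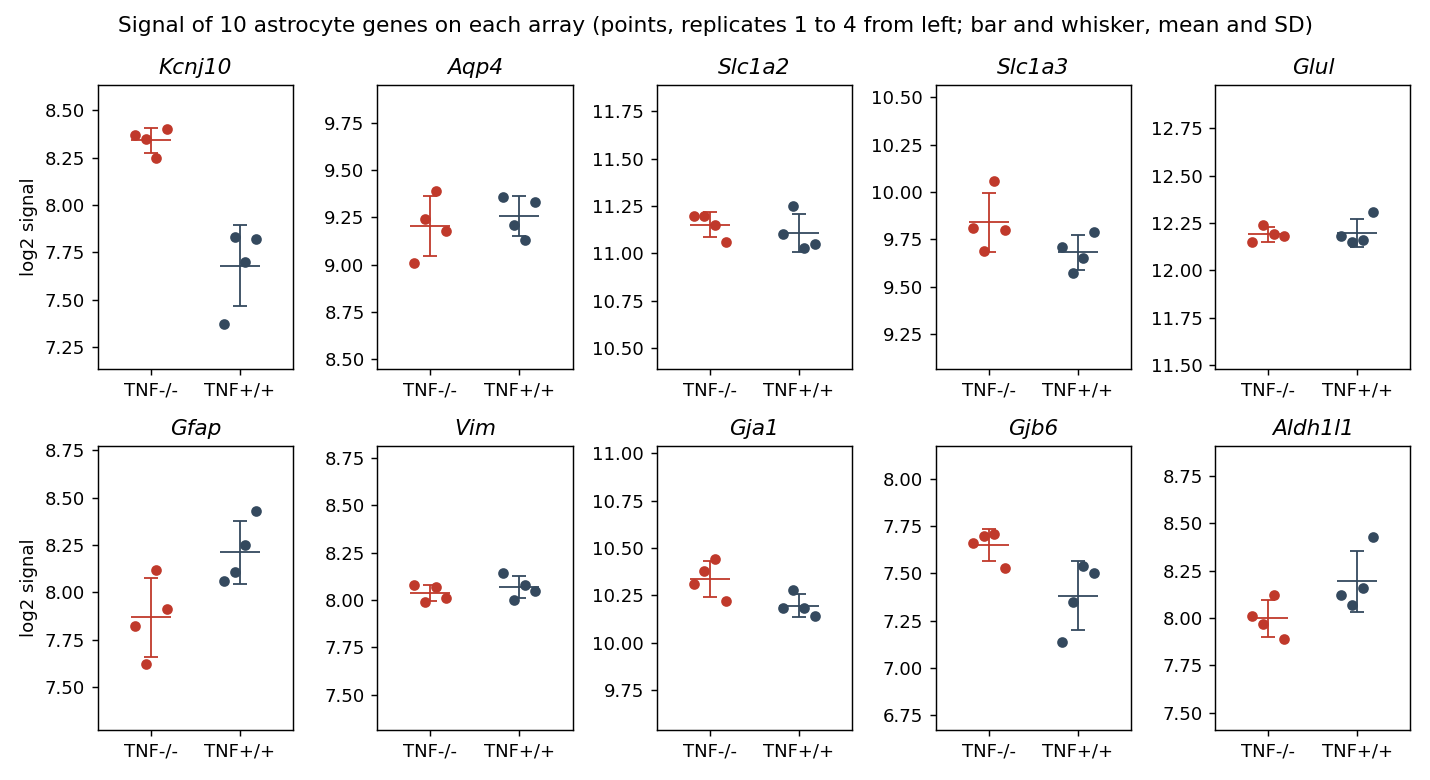
Log2 signal (vertical axes, each spanning the same 1.5 units) of each gene on each array, with TNF-/- arrays in red on the left and TNF+/+ arrays in dark blue on the right, and the mean with its SD (n = 4). The 4 TNF-/- values of Kcnj10 lie above all 4 TNF+/+ values, while the groups of the other 9 genes overlap.

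Kcnj10 (probe set 10351781, chromosome 1) encodes the channel that carries most of the potassium uptake of astrocytes. Its signal was 8.37, 8.35, 8.25 and 8.40 in TNF-/- arrays 1 to 4, against 7.37, 7.83, 7.70 and 7.82 in TNF+/+ arrays 1 to 4. The TNF-/- arrays lay close together and all above the TNF+/+ arrays, with a gap of 0.43 between the lowest TNF-/- array and the highest TNF+/+ array. The means were 8.34 ± 0.06 in TNF-/- and 7.68 ± 0.21 in TNF+/+ (SD, n = 4 each), a difference of 0.67 ± 0.10 (SE) or 1.59-fold. TNF+/+ array 1, the array with the high Gabra6 signal, was the lowest of all; without it the difference was 0.56, and without TNF+/+ arrays 3 and 4 it was 0.75. With any 1 array left out it stayed between 0.56 and 0.71.

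The sequence before the start of Kcnj10 is shown beside those of Gjb6 and Gfap, the genes with the largest differences upwards and downwards among the other 9. Each run is the 250 bases before the RefSeq gene start in GRCm38.p6, 5′ to 3′ on the gene's strand, and capitals mark matches to the motifs named below. Kcnj10 lies at chr1:172340960-172341209 on the plus strand, Gjb6 at chr14:57133612-57133861 and Gfap at chr11:102897201-102897450, both on the minus strand.
Kcnj10: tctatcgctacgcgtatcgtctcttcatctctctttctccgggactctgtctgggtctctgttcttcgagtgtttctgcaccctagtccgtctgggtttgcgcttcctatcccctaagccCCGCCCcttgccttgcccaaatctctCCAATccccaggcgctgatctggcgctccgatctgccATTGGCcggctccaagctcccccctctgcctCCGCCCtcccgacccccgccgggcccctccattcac
Gjb6: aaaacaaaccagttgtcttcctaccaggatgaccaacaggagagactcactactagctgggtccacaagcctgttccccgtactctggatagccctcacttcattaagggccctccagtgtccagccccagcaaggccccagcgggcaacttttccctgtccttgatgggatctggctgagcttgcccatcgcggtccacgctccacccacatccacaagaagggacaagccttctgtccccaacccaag
Gfap: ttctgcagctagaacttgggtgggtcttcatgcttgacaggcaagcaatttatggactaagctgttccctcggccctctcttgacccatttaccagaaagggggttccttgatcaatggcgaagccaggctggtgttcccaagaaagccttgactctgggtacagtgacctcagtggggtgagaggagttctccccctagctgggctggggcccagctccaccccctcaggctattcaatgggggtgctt

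Motifs searched on both strands were the CCAAT box (CCAAT), the GC box (GGGCGG), the TATA box (TATAAA), the core of the nuclear factor I site (TTGGC, which can overlap CCAAT on the opposite strand), a STAT site (TTCNNNGAA) and the kappaB site. The Kcnj10 run held CCAAT on the plus strand, starting at position -104 from the gene start, and on the minus strand, ending at -63, with GGGCGG on the minus strand and TTGGC, and no match to the TATA, STAT or kappaB motifs. The Gjb6 and Gfap runs held none of the 6 motifs. Promoters of 9 of the 10 genes were matched by symbol; of these 5 held CCAAT (34.5% of 27025 promoters), 4 GGGCGG (32.9%), 4 TTGGC (41.9%), 2 TATAAA (13%), 1 the STAT motif (7.18%) and 1 the kappaB motif (7.01%). The promoter with the kappaB match was that of Vim and the one with the STAT match that of Slc1a3. The Kcnj10 run was 62% G and C, that of Gjb6 56.8% and that of Gfap 55.6%, against a median of 52% over all promoters. A match is a match of letters and does not show binding.

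Aqp4 (probe set 10457614, chromosome 18), which encodes the water channel that shares the endfoot membrane with Kir4.1, gave no difference past the threshold. Its signal was 9.01, 9.24, 9.39 and 9.18 in the TNF-/- arrays, against 9.36, 9.21, 9.13 and 9.33 in the TNF+/+ arrays. The groups overlapped over most of their range, and the lowest and the highest value of all 8 were both TNF-/-. The difference was -0.05 ± 0.09 (SE; 95% interval -0.26 to 0.16; limma, adjusted p = 0.859), and its sign turned without TNF-/- array 1 (0.01).

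Neither glutamate transporter gene passed the threshold. Slc1a2 (probe set 10474141, chromosome 2), the main glutamate transporter of the forebrain, had a signal of 11.20, 11.20, 11.15 and 11.06 in the TNF-/- arrays, against 11.10, 11.25, 11.03 and 11.05 in the TNF+/+ arrays. The TNF-/- values lay wholly inside the TNF+/+ range, and the difference was 0.04 ± 0.07 (SE; 95% interval -0.11 to 0.19; limma, adjusted p = 0.832). Slc1a3 (probe set 10427590, chromosome 15), the transporter most used by radial glia and by the Bergmann glia of the cerebellum, had a signal of 9.81, 9.69, 10.06 and 9.80 in the TNF-/- arrays, against 9.71, 9.57, 9.65 and 9.79 in the TNF+/+ arrays.

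For Slc1a3, 3 of the 4 TNF-/- arrays lay above all TNF+/+ arrays, and TNF-/- array 3 was the highest. The difference was 0.16 ± 0.09 (SE; 95% interval -0.04 to 0.36; limma, adjusted p = 0.545), and it was 0.09 without TNF-/- array 3. On TNF+/+ array 1, the array with the high granule cell signal, Slc1a3 was at 9.71, within the range of the other TNF+/+ arrays (9.57 to 9.79). A cerebellar share in the Slc1a3 signal was not tested.

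Glul (probe set 10374453, chromosome 1), whose enzyme makes glutamine from the glutamate taken up, had the smallest difference of the group. Its signal was 12.15, 12.24, 12.19 and 12.18 in the TNF-/- arrays, against 12.18, 12.15, 12.16 and 12.31 in the TNF+/+ arrays. The difference was -0.01 ± 0.06 (SE; limma, adjusted p = 0.953), with a 95% interval of 0.909-fold to 1.08-fold. A second probe set of Glul (10350753) was dimmer, at 11.80, 11.72, 11.72 and 11.67 in the TNF-/- arrays and 11.87, 11.84, 11.73 and 11.77 in the TNF+/+ arrays. Its difference of -0.07 ± 0.06 (SE; limma, adjusted p = 0.645) was also within the spread between arrays.

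Of the filament genes, Gfap had the largest downward difference of the group and Vim a difference near 0. Gfap (probe set 10391798, chromosome 11), the filament gene most used to stain astrocytes, had a signal of 7.82, 7.62, 8.12 and 7.91 in the TNF-/- arrays, against 8.06, 8.11, 8.25 and 8.43 in the TNF+/+ arrays. Of the TNF-/- arrays, 3 lay below every TNF+/+ array and array 3 lay within the TNF+/+ range. The means were 7.87 ± 0.21 in TNF-/- and 8.21 ± 0.17 in TNF+/+ (SD, n = 4 each), a difference of -0.34 ± 0.12 (SE; 95% interval -0.62 to -0.07, not adjusted over probe sets; limma, adjusted p = 0.381). The highest Gfap signals were those of TNF+/+ arrays 3 and 4, the arrays that stood apart, and without them the difference was -0.22.

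Vim (probe set 10469322, chromosome 2), which encodes the filament protein that reactive and immature astrocytes share with vessel cells, had a signal of 8.08, 7.99, 8.07 and 8.01 in the TNF-/- arrays, against 8.14, 8.0, 8.08 and 8.05 in the TNF+/+ arrays. The groups overlapped almost fully. The difference was -0.03 ± 0.05 (SE; limma, adjusted p = 0.857), with a 95% interval of 0.901-fold to 1.06-fold.

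The connexin genes were both somewhat higher in the arrays labelled TNF-/-, without passing the threshold. Gjb6 (probe set 10420366, chromosome 14), which encodes the connexin Cx30, had a signal of 7.66, 7.70, 7.71 and 7.53 in the TNF-/- arrays, against 7.14, 7.35, 7.54 and 7.50 in the TNF+/+ arrays. The groups met only at TNF-/- array 4 and TNF+/+ array 3. The means were 7.65 ± 0.08 in TNF-/- and 7.38 ± 0.18 in TNF+/+ (SD, n = 4 each), a difference of 0.27 ± 0.09 (SE) or 1.21-fold (95% interval 1.04-fold to 1.40-fold, not adjusted over probe sets; limma, adjusted p = 0.378).

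As with Kcnj10, the lowest Gjb6 signal was on TNF+/+ array 1, and without that array the Gjb6 difference was 0.19. Without TNF+/+ arrays 3 and 4 it was 0.41, because the TNF+/+ arrays then left are the 2 lowest. Gja1 (probe set 10363173, chromosome 10), which encodes the connexin Cx43, had a signal of 10.31, 10.38, 10.44 and 10.22 in the TNF-/- arrays, against 10.18, 10.28, 10.18 and 10.14 in the TNF+/+ arrays. Of the TNF-/- arrays 3 lay above every TNF+/+ array, and TNF-/- array 4 lay below TNF+/+ array 2. The difference was 0.14 ± 0.06 (SE; 95% interval -0.0011 to 0.29; limma, adjusted p = 0.463).

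Aldh1l1 (probe set 10540034, chromosome 6), the general marker of the group, had a signal of 8.01, 7.97, 8.12 and 7.89 in the TNF-/- arrays, against 8.12, 8.07, 8.16 and 8.43 in the TNF+/+ arrays. TNF+/+ array 4 was the highest, and 3 of the 4 TNF-/- arrays lay below all TNF+/+ arrays. The difference was -0.19 ± 0.09 (SE; 95% interval -0.40 to 0.01; limma, adjusted p = 0.485). Without TNF+/+ array 4 it was -0.12, and without TNF+/+ arrays 3 and 4 it was -0.09.

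**Figure D2:**
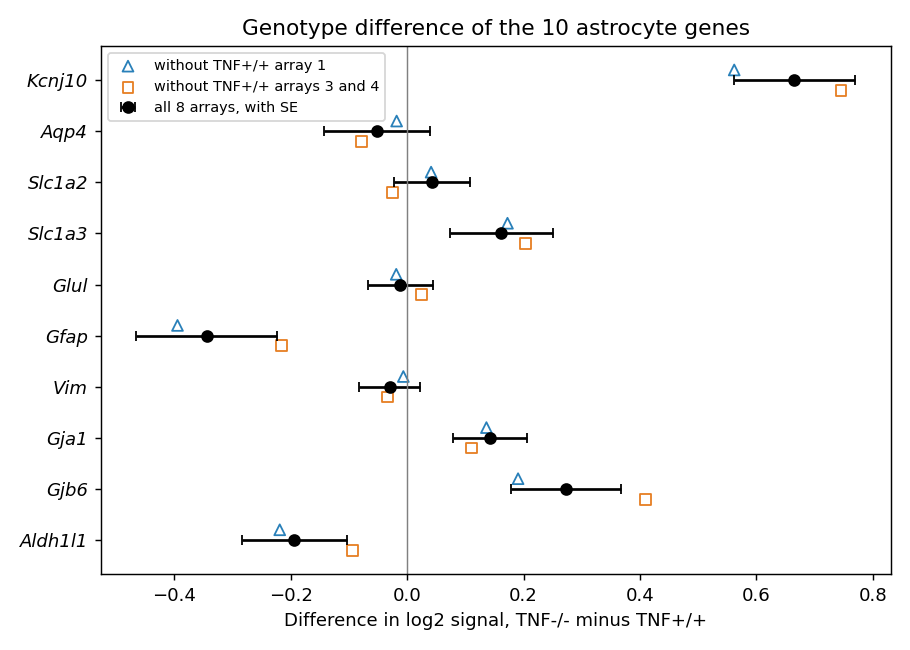
Difference in log2 signal, TNF-/- minus TNF+/+ (horizontal axis), of each gene with all 8 arrays (black, with the SE of limma), without TNF+/+ array 1 (blue triangles) and without TNF+/+ arrays 3 and 4 (orange squares). Kcnj10 lies at 0.67 and between 0.56 and 0.75 in the other 2 settings; Gfap lies at -0.34 and at -0.22 without TNF+/+ arrays 3 and 4.

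Across arrays the 10 genes did not move as 1 block. TNF-/- array 3 had the highest signal of its group for 6 genes (Slc1a3, Gfap, Aqp4, Gja1, Gjb6 and Aldh1l1) and the lowest for Kcnj10. TNF+/+ array 4 had the highest of its group for Slc1a3, Glul, Gfap and Aldh1l1. On that array Gfap stood 0.39 and Aldh1l1 0.33 above their means over the 8 arrays, while Kcnj10 stood at -0.19 and Gja1 at -0.12. TNF+/+ array 1 was the lowest of its group for Kcnj10 (-0.64 from its mean), Gjb6 (-0.38) and Gfap, although Gfap there was 0.02 above its mean over all arrays.

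The mean over the 10 genes was 9.24, 9.24, 9.35 and 9.22 in the TNF-/- arrays, against 9.13, 9.18, 9.19 and 9.28 in the TNF+/+ arrays. These means overlap, since TNF+/+ array 4 lies above 3 of the TNF-/- arrays, and Kcnj10, chosen for its difference, carries the shift between them. The difference in the mean was 0.07 with Kcnj10 and -0.0012 over the other 9 genes. Those 9 averaged 9.34, 9.34, 9.47 and 9.31 in the TNF-/- arrays, against 9.33, 9.33, 9.35 and 9.45 in the TNF+/+ arrays. Within a group, the range of a gene over its 4 arrays ran from 0.09 (Vim) to 0.51 (Gfap) in TNF-/- and from 0.13 (Gja1) to 0.46 (Kcnj10) in TNF+/+.

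**Figure D3:**
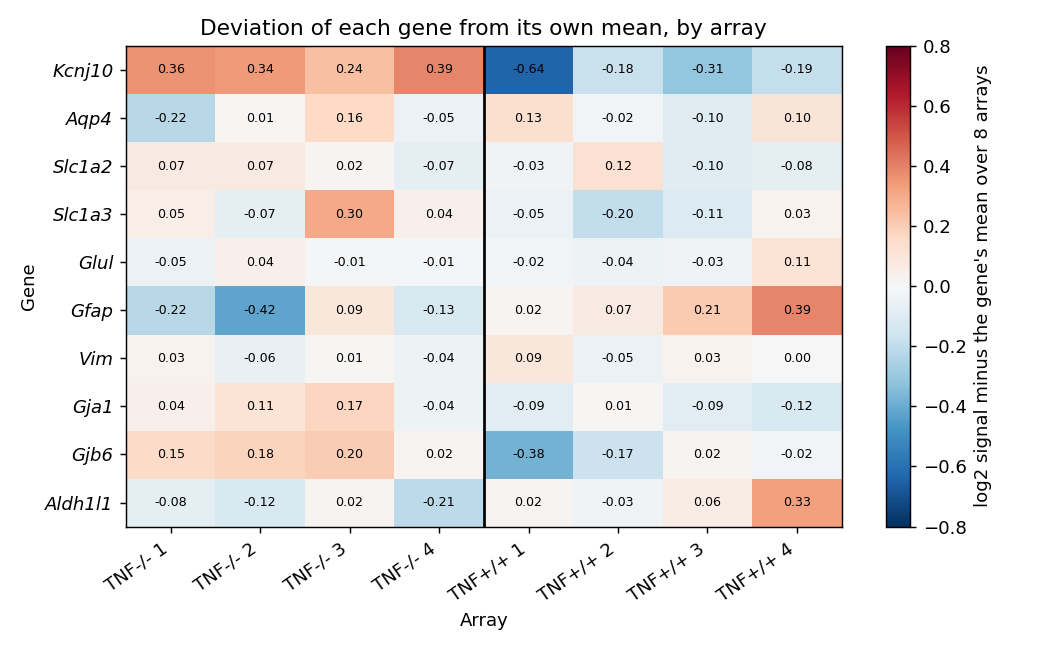
Deviation of each gene (rows) from its own mean log2 signal over the 8 arrays, for each array (columns, TNF-/- left of the line and TNF+/+ right of it), with red above and blue below the mean. The Kcnj10 row is red in all 4 TNF-/- arrays and blue in all 4 TNF+/+ arrays, and the Gfap row is highest at TNF+/+ array 4 (0.39) and lowest at TNF-/- array 2 (-0.42).

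A wider set of astrocyte genes was then counted, in 5 lists by role with 64 measured genes outside the 10. Limma called 0 of the 64 and SAM 0, and 12 had an unadjusted p under 0.05 (8 higher and 4 lower), against 10.8% of all probe sets. The median difference of the 64 was -0.01, the same as over all genes, with 32 higher and 32 lower. Groups did not overlap for 8 of the 64, against 6.63% of all probe sets.

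Among genes of potassium and ion transport, 0 of 7 were called and the median was 0.01. With 1 array left out that median ran from -0.02 to 0.04, and it was below 0 without TNF+/+ array 2 (-0.02), without TNF-/- array 4 (-0.02) and with each array centred on its median (-0.0059). Kcnn3, a calcium-activated potassium channel gene, differed by 0.17 ± 0.08 (SE), and Slc4a4, which encodes a sodium bicarbonate cotransporter, by -0.16 ± 0.08 (limma, adjusted p = 0.485 and 0.496). For Slc4a4, 3 of the 4 TNF-/- arrays lay below every TNF+/+ array. Slc12a2, which encodes a sodium, potassium and chloride cotransporter, differed by -0.13 ± 0.06 (SE; limma, adjusted p = 0.497); it was the gene of this list whose groups did not overlap and is named after its values were seen. Kcnj16, whose product joins Kir4.1 in mixed channels, differed by 0.07 ± 0.08 (limma, adjusted p = 0.786); it is named beyond the rule, for its role.

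Genes that handle glutamate, glutamine and GABA gave 0 of 9 called and a median of 0.05, which was 0.01 without TNF-/- array 4, 0.09 without TNF-/- array 1 and 0.03 after quantile normalization or with each array centred on its median. Slc6a11, which encodes the GABA transporter GAT-3 of astrocytes, had a signal of 10.41, 10.33, 10.51 and 10.30 in the TNF-/- arrays, against 10.09, 10.22, 10.34 and 10.14 in the TNF+/+ arrays. That is a difference of 0.19 ± 0.08 (SE; limma, adjusted p = 0.426), and only TNF+/+ array 3 reached into the TNF-/- range. Grm5, a metabotropic glutamate receptor gene that neurons also use, differed by 0.12 ± 0.07 (SE; limma, adjusted p = 0.575).

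Partners of the endfoot and the junctions gave 0 of 10 called, with 8 of 10 higher and a median of 0.08, which was 0.14 without TNF+/+ array 2 and 0.05 after quantile normalization. Mlc1, which encodes a membrane protein of the endfeet, had a signal of 10.15, 10.15, 10.22 and 10.12 in the TNF-/- arrays, against 9.98 to 10.04 in the TNF+/+ arrays. Its groups did not overlap, and the difference was 0.16 ± 0.05 (SE; limma, adjusted p = 0.335). Dag1, which encodes dystroglycan, the anchor of the endfoot to the basement membrane, differed by -0.16 ± 0.09 (SE; limma, adjusted p = 0.569).

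Filament and reactive genes gave 0 of 15 called and a median of -0.03, with 7 higher and 8 lower. The median turned to 0.06 without TNF+/+ array 4 and to 0.05 without TNF+/+ arrays 3 and 4, and was -0.05 without TNF-/- array 3 and with each array centred on its median. At an unadjusted p under 0.05, 5 of the 15 were higher and 0 lower, against 5.92% higher and 4.90% lower over all probe sets. The strongest was Fbln5, which encodes the elastic fibre protein fibulin-5, at 5.65, 5.63, 5.64 and 5.60 in the TNF-/- arrays, against 5.28, 5.16, 5.20 and 4.78 in the TNF+/+ arrays (difference 0.52 ± 0.10, SE; limma, adjusted p = 0.177). Cp, which encodes the iron oxidase ceruloplasmin, differed by 0.32 ± 0.10 (SE; limma, adjusted p = 0.327). Serpina3n, a protease inhibitor gene widely used as a marker of reactive astrocytes and named here after its values were seen, differed by 0.40 ± 0.12 (SE; limma, adjusted p = 0.334). It was at 7.45, 7.59, 7.76 and 7.86 in the TNF-/- arrays, against 7.10, 7.10, 7.44 and 7.44 in the TNF+/+ arrays. For Fbln5, Cp and Serpina3n, 3 of the 15, every TNF-/- array lay above every TNF+/+ array. Over all probe sets, groups did not overlap in either direction for 6.63%. These 3 genes were higher and Gfap lower, and whether the directions differ was not tested. The 8 lower members differed by -0.16 to -0.03. Among them, and named after their values were seen, were the inhibitor of matrix proteases Timp1 (-0.16 ± 0.07), the metalloreductase gene Steap4 (-0.14 ± 0.08), the small heat shock protein gene Hspb1 (-0.14 ± 0.10) and Lcn2, which encodes lipocalin-2 (-0.13 ± 0.09; SE; limma, adjusted p = 0.472 to 0.642). Timp1, Steap4, Hspb1 and Lcn2 were dim, at 3.46 to 4.45, under the array medians of 5.03 to 5.11. The lower quartiles of the arrays were 3.95 to 4.04, so these differences lie near the floor. The mean of the whole list, 4.82 to 4.96, was also under the array medians.

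General astrocyte genes gave 0 of 23 called. At an unadjusted p under 0.05, 1 of the 23 was higher and 4 lower, against 5.92% higher and 4.90% lower over all probe sets. Groups did not overlap for 3 of the 23, all lower, against 6.63% of all probe sets in either direction. Of the 23, 8 were higher and 15 lower, with a median of -0.09. Without TNF+/+ arrays 3 and 4 that median was 0.0040. With 1 array left out it stayed below 0, and was nearest to 0 when TNF-/- array 4 (-0.03) or TNF-/- array 2 (-0.06), or TNF+/+ array 4 (-0.04) or TNF+/+ array 3 (-0.06), was the one omitted. Cbs, which encodes cystathionine beta-synthase, had a signal of 6.41, 6.31, 6.31 and 6.30 in the TNF-/- arrays, against 6.55, 6.65, 6.60 and 6.83 in the TNF+/+ arrays. Its groups did not overlap, and the difference was -0.33 ± 0.07 (SE; limma, adjusted p = 0.212). Id3, a gene for an inhibitor of DNA binding, differed by -0.24 ± 0.08 (SE; limma, adjusted p = 0.377). The list mean was highest on TNF+/+ array 4, at 9.40, against 9.14 to 9.31 in TNF-/- and 9.21 to 9.30 in the other TNF+/+ arrays.

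Markers of other cell types were set beside these values. Of the oligodendrocyte genes 9 of 10 were lower, as were 52.2% of all genes, with a median of -0.23. Groups did not overlap for 4 of the 10, all lower, against 6.63% of all probe sets in either direction. Oligodendrocytes also use Kcnj10, and their part in its difference was not tested. Without TNF+/+ arrays 3 and 4, the arrays that stood apart and the highest of this list, the median was -0.13 (an alternative chosen after seeing the data). The oligodendrocyte list mean was 8.96, 9.04, 9.04 and 9.13 in the TNF-/- arrays, against 9.09, 9.23, 9.31 and 9.35 in the TNF+/+ arrays. Opalin, a gene of myelinating oligodendrocytes, differed by -0.38 ± 0.07 (SE; limma, adjusted p = 0.139). Genes of the meningeal fibroblasts had 7 of 8 higher, with list means of 6.39 to 6.47 in TNF-/- and 6.10 to 6.36 in TNF+/+. The meningeal list was added last, with earlier results of these arrays known, so its values are a description. Its member with the largest difference, Slc6a20a (0.41), is also one of the genes found by their likeness to Kcnj10 below. The ependyma and choroid plexus list had 8 of 10 higher, with means of 5.96 to 6.10 in TNF-/- and 5.81 to 6.00 in TNF+/+. Clic6, a gene of the choroid plexus epithelium, differed by 0.25 ± 0.07 (SE; limma, adjusted p = 0.313).

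In the meningeal and the ependymal lists TNF+/+ array 1 had the lowest mean (6.10 and 5.81), as it had the lowest signals of Kcnj10 and Gjb6. The meningeal mean was nearly as low on TNF+/+ array 2 (6.13). That list holds Slc6a20a, at 6.92 on TNF+/+ array 1 and 7.22 on array 2. The search for likeness to Kcnj10 that found this gene selects for a low TNF+/+ array 1. The part of the 2 lists in the Kcnj10 and Gjb6 results was not tested. The other lists lay close together: microglial means were 6.08 to 6.25 in TNF-/- and 6.20 to 6.35 in TNF+/+, neuronal means 10.59 to 10.63 in TNF-/- and 10.55 to 10.66 in TNF+/+, and endothelial and pericyte means 6.52 to 6.69 in TNF-/- and 6.52 to 6.62 in TNF+/+. Oligodendrocyte precursor means were 6.98 to 7.16 in TNF-/- and 7.04 to 7.23 in TNF+/+. The Bergmann glia and cerebellar list was at 5.99 to 6.05 in TNF-/-, and at 7.27 on TNF+/+ array 1 against 5.94 to 6.07 on the other TNF+/+ arrays. In that list 9 of 10 genes were lower, as were 52.2% of all genes, with a median of -0.20. Without TNF+/+ array 1 that median was 0.0026 (an alternative chosen after seeing the data). Of the 73 measured genes of these 8 lists limma called 0 (0.0816% of all probe sets) and SAM 0 (0.149%), with 11 at an unadjusted p under 0.05, against 10.8% of all probe sets. The members with the smallest p were Aif1 at -0.14 (microglia), Map2 at 0.15 (neurons), Pdgfrb at 0.13 (pericytes), Olig1 at -0.15 (precursors) and Pcp2 at -0.31 (cerebellum). Their adjusted p ran from 0.445 to 0.555 (limma), and of these genes only Aif1 had an unadjusted p under 0.05.

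**Figure D4:**
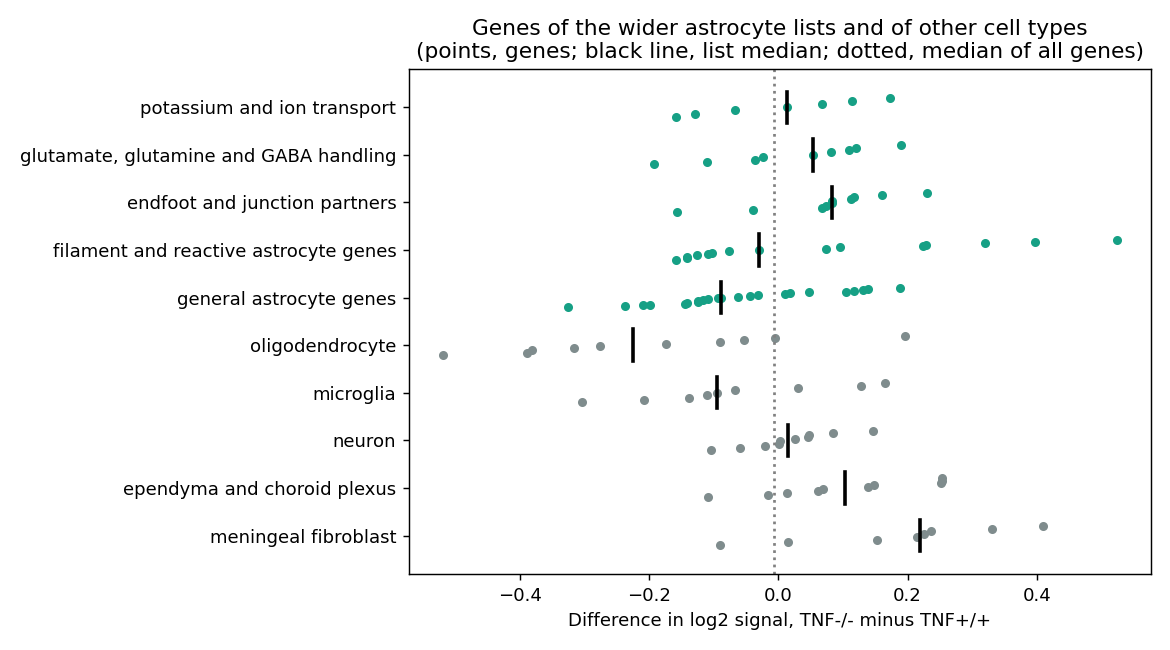
Difference in log2 signal, TNF-/- minus TNF+/+ (horizontal axis), of each gene of the 5 wider astrocyte lists (green points) and of 5 lists of other cell types (grey points), with the list median as a black line and the median of all genes (-0.01) dotted. The astrocyte medians lie between -0.09 and 0.08, the oligodendrocyte median at -0.23 and the meningeal median at 0.22. The meningeal list was added last, with earlier results known.

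The chromosomal surroundings of Kcnj10 were read from the gene order of GRCm38.p6. Of the 10 neighbours, 5 measured genes on each side, limma called 0 (0.0816% of all probe sets) and SAM 0 (0.149%). Of these 10, 2 had an unadjusted p under 0.05, against 10.8% of all probe sets, and groups did not overlap for 2, against 6.63%. Immediately before it lies Kcnj9, a gene of another inward rectifier that neurons use, which differed by 0.09 ± 0.09 (SE), and immediately after it Pigm, a gene of glycolipid anchor synthesis, at -0.24 ± 0.12 (limma, adjusted p = 0.72 and 0.509). Igsf8, a gene for a cell surface protein of the immunoglobulin superfamily 2 places before Kcnj10, was at 7.52, 7.39, 7.43 and 7.36 in the TNF-/- arrays, against 7.63, 7.58, 7.73 and 7.74 in the TNF+/+ arrays, a difference of -0.24 ± 0.06 (SE; limma, adjusted p = 0.264). Its groups did not overlap, and its direction is opposite to that of Kcnj10.

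Pea15a, an astrocyte-rich phosphoprotein gene 5 places before Kcnj10, differed by 0.17 ± 0.06 (SE; limma, adjusted p = 0.368), with every TNF-/- array above every TNF+/+ array. Casq1, Atp1a4, Slamf9, Igsf9 and Cfap45 differed by -0.10 to -0.02, and Tagln2 by 0.17. Of the 10 neighbours 3 were higher and 7 lower, with a median of -0.04. Catspere2, which limma calls higher in these arrays, lies on the same chromosome with 61 measured genes between it and Kcnj10, and Glul lies there with 165 between.

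**Figure D5:**
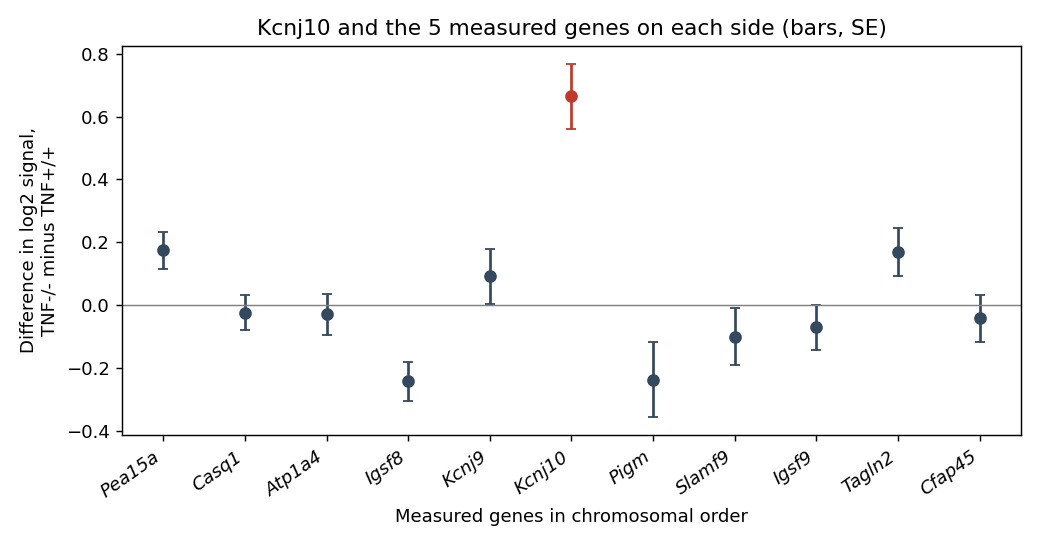
Difference in log2 signal, TNF-/- minus TNF+/+ (vertical axis, bars are the SE of limma), of Kcnj10 (red) and of the 5 measured genes on each side of it in chromosomal order (dark blue). Kcnj10 lies at 0.67 and its neighbours between -0.24 and 0.17.

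Genes with an array pattern most like that of Kcnj10 were ranked by the root mean square difference between centred signals over the 8 arrays, among 9969 genes at or above the median signal. The 5 nearest were Tfb1m (0.14), Slc6a20a, a transporter gene of meninges and choroid plexus (0.14), Ddo, which encodes D-aspartate oxidase (0.15), Zfp760, a zinc finger gene (0.16), and Dbpht2 (0.16). Each was higher in all 4 TNF-/- arrays than in any TNF+/+ array, and each was lowest on TNF+/+ array 1, as Kcnj10 was. A search of this kind selects for both traits. None of the 5 belongs to the astrocyte lists, but the wider lists hold only 64 of the 19938 measured genes, so this absence shows little. The nearest of the other 9 astrocyte genes was Gjb6, ranked 134 of the genes searched (0.23), and the farthest was Gfap (0.54).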

How the data were processed

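Signals of 8 Affymetrix Mouse Gene 1.0 ST arrays (4 TNF-/-, 4 TNF+/+, grouped and numbered by title) were used as the authors deposited them, as log2 values for 35556 probe sets. The log2 scale follows from the values (2.83 to 14.1). GCOS, GCRMA and Partek appear in the submitters' processing notes with no version or role. No detection calls are in the table, and the number of arrays limits the precision. The platform annotation gives 1 gene symbol for 21789 probe sets and several for 1621, leaving 12146 unnamed here; 19856 of 19938 genes matched RefSeq of GRCm38.p6.

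Limma 3.58.1 in R 4.3.3 was fitted over all probe sets (genotype term; eBayes with a prior of 2.52 degrees of freedom; two-sided p, Benjamini-Hochberg); a call is an adjusted p under 0.05. SAM was rebuilt with all 70 assignments (estimated false discovery rate 4.49%). Both were tested on simulated data. Where a sentence gives an adjusted p, it is limma's. Whether replicates came from separate cages or litters is not given.

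The genes and lists were chosen with earlier results of these arrays known; the meningeal list was added last. Of 155 gene entries in the lists, 8 had no probe set with that symbol alone. Named genes were the 10 astrocyte genes, Tnf, the 2 genes of each wider list and the 1 gene of each other cell type list with the smallest p, the 5 neighbours on each side of Kcnj10 and the 5 genes most like it; for the meningeal list that gene is Slc6a20a. Others are marked where named. Figures were drawn with matplotlib 3.10.9.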

Additional observations from a re-analysis of the deposited data

Results flagged for a closer look

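Of 48 groups of 4 arrays examined (10 genes and 14 list means, in each genotype), 4 held an array far from the remaining 3; chance flags about 1 in 20. None of the 4 was one of the 10 astrocyte genes. In TNF-/- array 4 the mean of the endfoot and junction list was 8.03, against 8.15 to 8.18 in the other TNF-/- arrays, and that of the microglial list was 6.08, against 6.24 to 6.25. In TNF+/+ array 1 the mean of the endothelial and pericyte list was 6.52, against 6.61 to 6.62 in the other TNF+/+ arrays, and that of the Bergmann glia and cerebellar list was 7.27, against 5.94 to 6.07.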

How the results depend on the processing

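Limma called 0 of the 9 genes other than Kcnj10 in each of the 16 other limma settings run on this count, with 1 to 4 of the 9 at an unadjusted p under 0.05, and SAM called 0. Kcnj10 kept its direction in 17 of 17 alternatives (0.56 to 0.75), as did Slc1a3, Gfap, Vim, Gja1, Gjb6 and Aldh1l1. Kcnj10 was chosen for its difference and its groups did not overlap, so leaving arrays out could not turn its sign. Some alternatives, such as the replicate block, change the error or the probe sets fitted and not the difference. With that block the Kcnj10 difference stayed at 0.67. Signs turned only near 0: Glul was 0.0204 after quantile normalization, 0.0245 without TNF+/+ arrays 3 and 4 and -0.0284 to 0.0244 with 1 array left out, Aqp4 was -0.114 to 0.0132 with 1 array left out, and Slc1a2 was -0.0244 without TNF+/+ arrays 3 and 4; the cause was not tested. The count of probe sets called by limma over the whole table, 29, was 63 with only probe sets of 1 gene symbol, 53 by SAM, 0 without TNF+/+ arrays 3 and 4 (3566 before adjustment), and 1 (without TNF+/+ array 3) to 20 with 1 array left out. With the replicate number as a block, limma called 0 probe sets (4025 at an unadjusted p under 0.05) and 0 of the 9 genes. Same-numbered arrays deviated together weakly, with correlations of 0.07, 0.11, 0.10 and 0.07 for numbers 1 to 4. Of the TNF-/- arrays, 3 of 4 were nearest to their own number. Whether same-numbered arrays share more than a number was not tested. The wider astrocyte lists kept 0 calls in 12 alternatives. SAM was not run on reduced sets of arrays.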
